A study of Drosophila melanogaster with 6 samples.

Results

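Transcripts of heat shock proteins and their co-chaperones were followed in Drosophila melanogaster embryos mutant for ribbon (rib). The rib gene encodes a BTB-domain transcription factor that acts as tubes such as the trachea and the salivary gland take shape. Of 10 genes chosen, 6 had a probe set that the platform annotation assigns to 1 gene symbol: Hsp68, Hsp26, Hsp27, DnaJ-1, stv and Hsf. They account for 6 of the 18769 probe sets tested and 6 of 11982 genes with 1 symbol. Hsp22 appears only on 2 probe sets that also carry the symbol of another gene, and Hsp23, Hsp67Bc and Hsp83 are unnamed here.

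The comparison used Affymetrix Drosophila Genome 2.0 arrays, 3 of them from rib1/ribP7 embryos and 3 from wild-type (Oregon R) embryos, with each array made from a separate collection of embryos. Both groups were at stages 11 to 16, collected over 8 h at room temperature, aged for 11 h and isolated with an embryo sorter, and 100 ng of total RNA was labelled. The rib1 and ribP7 alleles are carried together in the mutant and neither is in the wild type, and the labels give no heat or stress treatment for any array. Because whole embryos were used, fewer cells of a type and less RNA per cell cannot be told apart.

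Heat shock proteins are molecular chaperones that bind unfolded proteins. Hsf, the heat shock transcription factor, forms trimers under stress and switches on the genes of the Hsp70 family, the small heat shock proteins and several co-chaperones. Hsp70 proteins fold their clients in a cycle of ATP hydrolysis that J-domain proteins such as DnaJ-1 start and that BAG-domain proteins such as starvin (stv) help to end by releasing nucleotide. Small heat shock proteins such as Hsp26 and Hsp27 hold unfolded proteins without using ATP, and in flies some of them are also made without heat, in the ovary and in response to ecdysone.

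Of the 6 genes 3 were lower in the mutants and none was higher. The lower ones were Hsp68, a heat-inducible member of the Hsp70 family, the small heat shock gene Hsp26 and DnaJ-1. Hsp68 fell 13.4-fold, Hsp26 5.94-fold and DnaJ-1 2.91-fold. Across all probe sets, 3.32% passed limma's test at an adjusted p under 0.05 as lower in the mutants and 5.54% as higher. All 6 genes had a negative difference, against 64.1% of all probe sets, and their median difference was -1.28 log2 units against -0.06 over all genes. Hsp27, stv and Hsf did not pass the test.

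Hsp68 (chromosome arm 3R), like each of the other genes, had 1 probe set. It measured 6.74, 6.98 and 6.79 log2 units in the mutant arrays, against 10.61, 11.30 and 9.84 in the wild-type arrays. Every mutant array lay below every wild-type array. Of all probe sets, 21.1% had every mutant array below every wild-type array. The mean was 6.84 ± 0.13 in mutants and 10.58 ± 0.73 in wild type (SD, n = 3 each). The difference of -3.75 (SE 0.35) had a 95% interval from -4.60 to -2.89 and limma adjusted p = 0.00249, and it was the ninth lowest of all probe sets. In mutants the gene sat at percentile 61.7 of all probe sets and in wild type at percentile 93.0. The array medians lay at 5.50 to 5.55.

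Hsp26 (arm 3L) measured 10.75, 10.42 and 10.36 log2 units in the mutant arrays, against 13.41, 13.31 and 12.53 in the wild-type arrays. The groups did not overlap, and the mutants still held Hsp26 at percentile 92.3 of all probe sets, against percentile 99.3 in wild type. The difference was -2.57 (SE 0.25, 95% interval -3.19 to -1.95) with limma adjusted p = 0.00309.

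Hsp27 (arm 3L), the other small heat shock gene measured, had 12.26, 12.09 and 12.09 log2 units in the mutant arrays, against 12.82, 12.79 and 12.24 in the wild-type arrays. Mutant replicate 1 and wild-type replicate 3 overlapped by a narrow margin, while the other wild-type arrays stood above all mutant arrays. The difference of -0.47 (SE 0.17, 95% interval -0.89 to -0.06) gave limma adjusted p = 0.151. Without wild-type replicate 3 it was -0.66 with limma adjusted p = 0.0143. Without wild-type replicate 1 it was -0.37 and without replicate 2 it was -0.39 (limma adjusted p = 0.180 and 0.304). Scaling on hybridization controls brought it to -0.09 with limma adjusted p = 0.766. Hsp26 and Hsp27 belong to one cluster of small heat shock genes on 3L, with Hsp23 and 2 other annotated genes between them. Their differences were 2.10 log2 units apart, Hsp26 being the lower, and the groups did not overlap in this measure. An exact two-sided permutation test of the arrays gave p = 0.1, the smallest that 3 against 3 arrays can give.

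DnaJ-1 (arm 3L), the fly Hsp40 gene, measured 11.00, 10.77 and 10.81 log2 units in the mutant arrays, against 12.65, 12.58 and 11.98 in the wild-type arrays. The groups did not overlap. The difference was -1.54 (SE 0.19, 95% interval -2.01 to -1.07) with limma adjusted p = 0.00717. The transcript lay among the brighter ones in both groups, at percentile 94.3 in mutants and 98.7 in wild type.

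The gene stv (arm 3L) measured 7.26, 7.18 and 7.04 log2 units in the mutant arrays, against 9.01, 8.76 and 6.78 in the wild-type arrays. Wild-type replicate 3 lay below all mutant arrays and the other wild-type arrays lay above them. The mean was 7.16 ± 0.11 in mutants and 8.18 ± 1.22 in wild type (SD, n = 3 each), and the difference of -1.02 (SE 0.57, 95% interval -2.42 to 0.37) gave limma adjusted p = 0.313. Without wild-type replicate 3 the difference was -1.72 with limma adjusted p = 0.00233. Leaving out that array, the lowest wild-type array for 6 of 6 genes, took the count of lower genes to 5 of 6, against 3.65% of all probe sets in the same fit. Without wild-type replicate 1 the stv difference was -0.61 (limma adjusted p = 0.438). Without wild-type replicate 2 it was -0.74 (limma adjusted p = 0.524), and the count of lower genes was 3 in both of these fits.

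Hsf (arm 2R) measured 10.42, 10.37 and 10.31 log2 units in the mutant arrays, against 10.82, 10.58 and 10.37 in the wild-type arrays. Its groups overlapped at wild-type replicate 3. The difference of -0.22 (SE 0.13, 95% interval -0.53 to 0.09) gave limma adjusted p = 0.318, so a fall of the size seen in DnaJ-1 lay outside the interval for the Hsf transcript. Scaling on hybridization controls turned its sign, to 0.16 with limma adjusted p = 0.554.

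**Figure D1:**
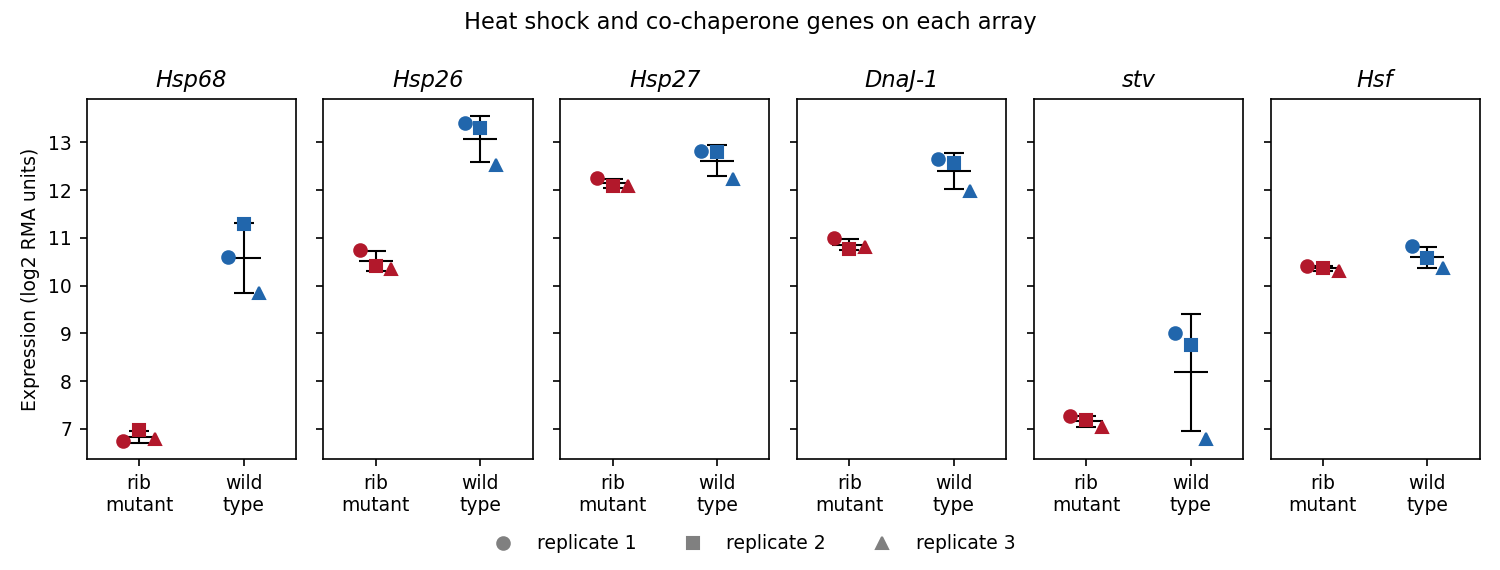
Expression in log2 RMA units on each array for the 6 measured genes, rib mutant (red) left of wild type (blue), with bars for the mean and SD of 3 arrays. Hsp68, Hsp26 and DnaJ-1 show no overlap between the groups, while wild-type replicate 3 (triangle) reaches the mutant range for Hsp27, stv and Hsf.

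The wild-type arrays differed among themselves in these transcripts. Wild-type replicate 3 had the lowest value of its group for 6 of 6 genes, as it did for 24.5% of all probe sets. Its median deviation from the group mean was -0.49 log2 units over the 6 genes, against 0.07 over all probe sets. For 5 genes wild-type replicate 1 was the highest and replicate 3 the lowest of the group, with replicate 2 between them, an order found in 15.6% of all probe sets, whereas Hsp68 was highest in replicate 2. Among the mutant arrays, replicate 1 was the highest for 5 of 6 genes and for 35.6% of all probe sets, and its median deviation over the 6 genes was 0.11. The SD was larger in wild type for 6 of 6 genes and for 80.8% of all probe sets.

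**Figure D2:**
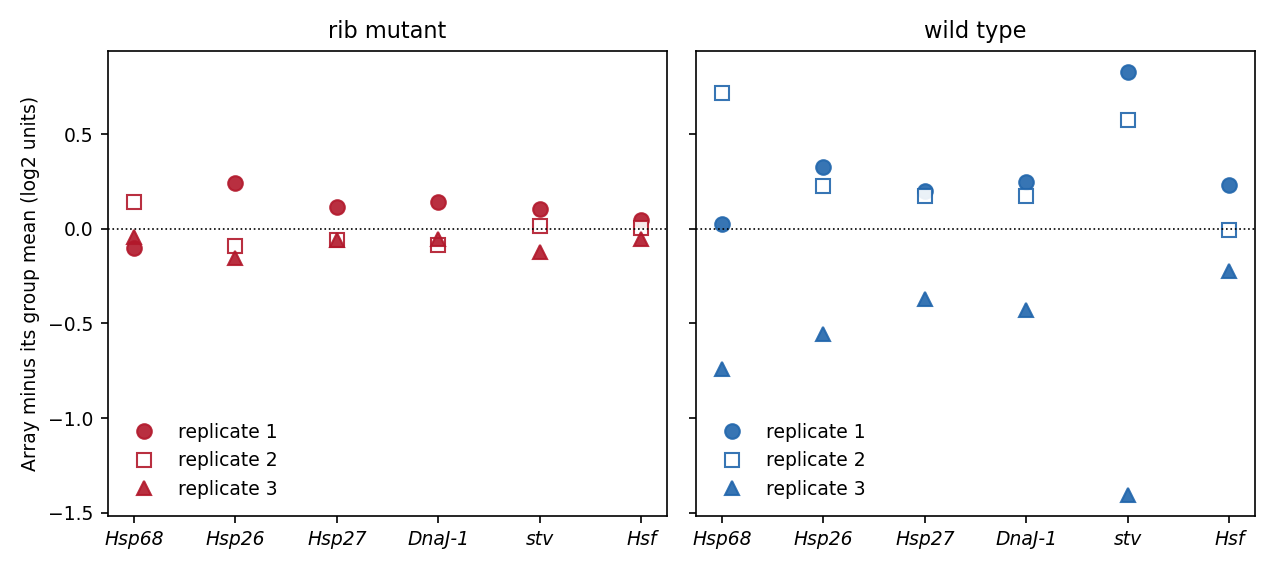
Each array's log2 value minus its group mean for the 6 measured genes, rib mutant left and wild type right. The mutant arrays stay within 0.24 log2 units of their mean, while wild-type replicate 3 lies below 0 for every gene, down to -1.40 for stv.

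The Hsp70 genes proper exist as near-identical copies that these arrays cannot separate, and they were examined through the probe sets that carry symbols of Hsp70 copies alone, a choice made after their values were seen. Signal on 4 such probe sets fell in the mutants. The probe set for 4 Hsp70B copies measured 6.85, 7.28 and 6.98 log2 units in the mutant arrays, against 12.44, 13.48 and 11.96 in the wild-type arrays. Its difference of -5.59 (SE 0.38, limma adjusted p = 0.000859), 48.1-fold, was the lowest of all 18769 probe sets. A probe set for 2 of the Hsp70B copies measured 5.34, 5.57 and 5.60 log2 units in the mutant arrays, against 10.59, 11.58 and 10.02 in the wild-type arrays, a difference of -5.23 (SE 0.38, limma adjusted p = 0.00105). Its mutant level lay at the array medians and is not shown to be above background, so the size of its fall is not exact. The probe set for 2 Hsp70A copies measured 7.52, 7.74 and 7.51 log2 units in the mutant arrays, against 12.63, 13.20 and 12.27 in the wild-type arrays, a difference of -5.11 (SE 0.23, limma adjusted p = 0.000235).

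A dimmer probe set for 4 Hsp70B copies, at 4.20 in mutants and 5.70 in wild type, gave -1.50 (SE 0.10, limma adjusted p = 0.000775). Its mutant level, at percentile 5.17 of all probe sets, is likewise not shown to be above background. Which copy any of these signals came from cannot be told. On all 4 the wild-type order was replicate 2, then 1, then 3, the order also seen for Hsp68 and in 8.83% of all probe sets. A further probe set that joins 2 Hsp70B copies with an unrelated gene sat at 5.07 in mutants and 5.10 in wild type (limma adjusted p = 0.863).

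Both probe sets that list Hsp22 also list its neighbour CG4456, so neither level can be assigned to Hsp22. The brighter one measured 8.86, 8.82 and 9.20 log2 units in the mutant arrays, against 11.63, 12.22 and 11.50 in the wild-type arrays, and its difference was -2.83 (SE 0.21, limma adjusted p = 0.00122). The groups did not overlap on either, but the other differed by only -0.31 (SE 0.13, limma adjusted p = 0.188).

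**Figure D3:**
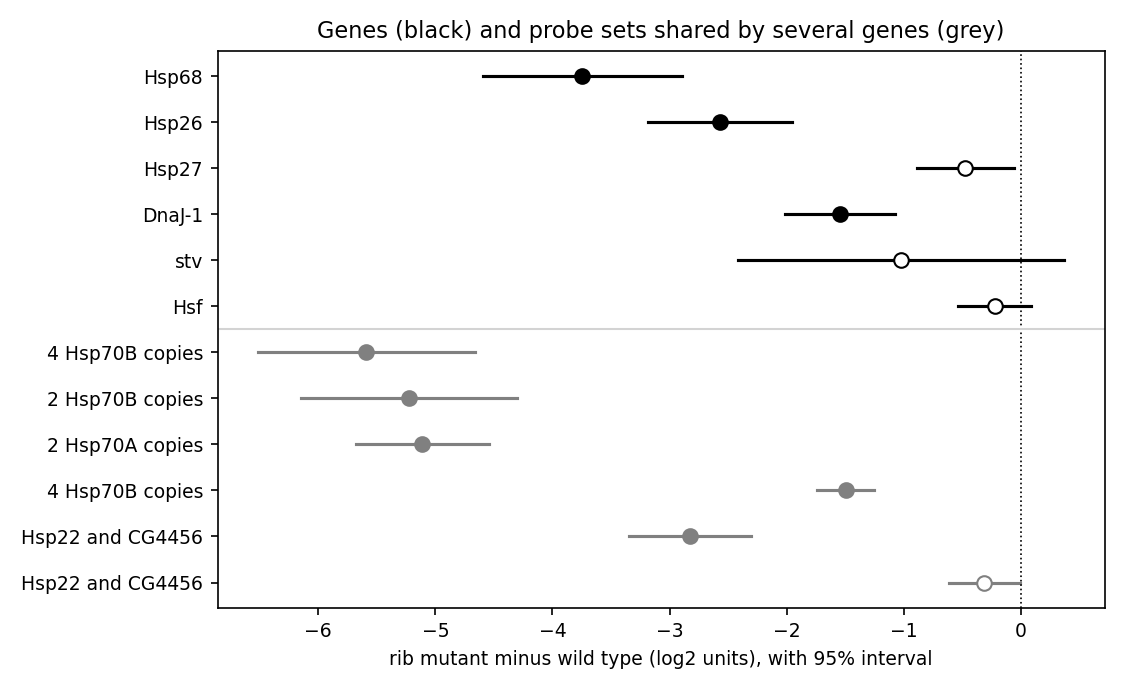
Difference between rib mutant and wild type in log2 units with its 95% interval, for the 6 measured genes (black) and for probe sets shared by several genes (grey). Filled points passed limma's test at an adjusted p under 0.05, and 3 of the Hsp70 probe sets lie below -5.

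Among other chaperone genes the calls went both ways. Over the 7 lists of chaperone and stress genes, 100 genes were measured, of which 12 were higher and 6 lower in the mutants, with a median difference of 0.10. The list of 12 oxidative stress genes, which is not one of chaperones, held 7 of the higher and 1 of the lower calls. Over all genes, 7.0% were called higher and 4.25% lower. Of these 18 calls 4 held in each of the 6 fits that left out 1 array (Hsc70-2, CG7130, Cat and Trxr1), and 14 were lost in at least 1 such fit. The list medians of J-domain and Hsp90 genes turned positive (0.24 and 0.33) with arrays scaled on hybridization controls, a scaling that moved the median of all probe sets to 0.31, against -0.07 as deposited.

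Among the Hsp70 and Hsp110 families outside the heat-inducible copies, 2 of 6 measured genes rose and none fell, with a list median of 0.58. With the replicate number as a block 3 were higher, the added gene being Hsp110 at 0.60 (limma adjusted p = 0.0670, blocked 0.0301 and 0.0405 without wild-type replicate 3). Hsc70-1, a cognate member of the Hsp70 family, measured 7.77, 7.37 and 7.55 log2 units in the mutant arrays, against 6.56, 5.99 and 5.91 in the wild-type arrays. It rose by 1.41 (SE 0.20, limma adjusted p = 0.0113, up to 0.0566 with 1 array left out), and its other probe sets gave 1.31 and 1.65. Hsc70-2 measured 6.58, 6.19 and 6.01 log2 units in the mutant arrays, against 4.78, 4.57 and 4.94 in the wild-type arrays, a rise of 1.50 (SE 0.17, limma adjusted p = 0.00542). The wild-type level of Hsc70-2, at percentile 23.3 of all probe sets, is not shown to be above background, so the size of its rise is not exact. Every mutant array lay above every wild-type array for Hsc70-1 and Hsc70-2, and below for Hsp68. The share of all probe sets with every mutant array above was not counted.

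Of 34 measured J-domain genes, the family of DnaJ-1, 3 fell and 1 rose, with a list median of -0.14. With the replicate block 4 were lower and 2 higher, the added genes being CG11035 at -0.63 (limma adjusted p = 0.0220) and Rme-8 at 0.55 (limma adjusted p = 0.0378). CG7130 measured 6.95, 6.82 and 6.85 log2 units in the mutant arrays, against 8.81, 8.46 and 8.40 in the wild-type arrays, and fell by 1.68 (SE 0.13, limma adjusted p = 0.00117). DnaJ-H fell by 1.26 (SE 0.19, limma adjusted p = 0.0129). The gene wurst (wus), which codes for a J-domain membrane protein that acts in endocytosis in tracheal tubes, fell by 0.92 (SE 0.16, limma adjusted p = 0.0226, 0.110 with hybridization-control scaling). Csp, the cysteine string protein of synaptic vesicles, rose by 0.47 (SE 0.09, limma adjusted p = 0.0351). With 1 array left out the adjusted p of these 4 reached 0.0119 for CG7130, 0.0645 for DnaJ-H, 0.102 for wus and 0.151 for Csp.

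Genes of the Hsp90 family and its co-chaperones gave 1 call among 10, with a median of -0.05. CG1416, which the gene table also names Aha1, after the activator of the Hsp90 ATPase, measured 11.25, 11.25 and 11.29 log2 units in the mutant arrays, against 11.70, 11.92 and 11.92 in the wild-type arrays. It fell by 0.59 (SE 0.09, limma adjusted p = 0.0139, 0.138 with hybridization-control scaling). With the replicate number as a block 2 genes of this list were called, CG1416 lower and Fkbp59 higher (limma adjusted p = 0.0149).

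No gene of 19 chaperonins and prefoldin subunits was called by limma, although 6 had an unadjusted p under 0.05, and the list median was 0.10. The nearest was CCT2, a subunit of the ring that folds actin and tubulin, at 0.58 (SE 0.13, limma adjusted p = 0.0514). With the replicate block 3 were called, all higher, namely CCT2, CCT4 and Pfdn4. None of 4 other small heat shock genes was called by limma or had an unadjusted p under 0.05, and the smallest p was that of CG13133, which differed by 0.14 (limma adjusted p = 0.339) at a level below the array medians. The brightest of the 4, l(2)efl, differed by 0.61 (limma adjusted p = 0.532), with 9.54, 7.75 and 7.17 log2 units in wild-type replicates 1 to 3. With 1 array left out that difference ran from 0.12 to 1.31, and its limma adjusted p over the alternative fits ran from 0.0137 to 0.927.

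**Figure D4:**
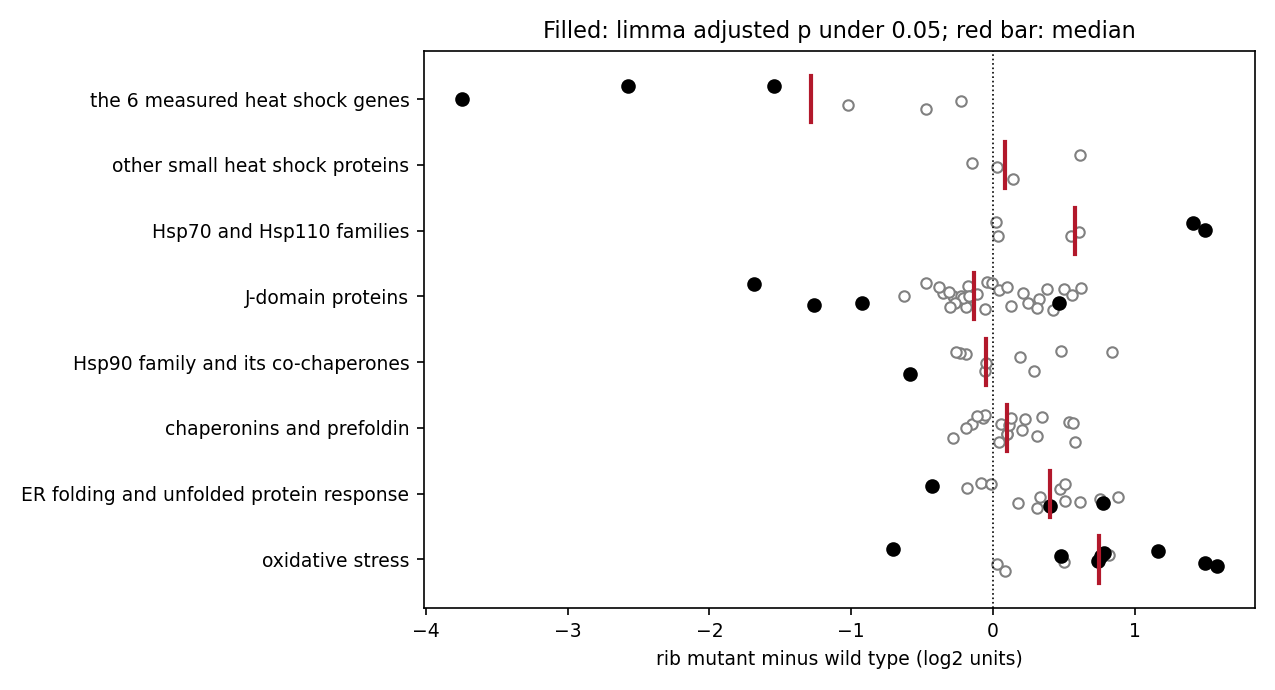
Difference between rib mutant and wild type in log2 units for the 6 measured heat shock genes and each gene of 7 lists. Filled points passed limma's test at an adjusted p under 0.05 and the red bar is the list median, -1.28 for the heat shock genes and 0.75 for oxidative stress genes.

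Markers of other tissues and stages also differed between the groups. Of 15 measured genes of the maternal and cellularising embryo, 7 fell and none rose, and their summed linear signal was 6084 to 7090 in mutants against 7838 to 10728 in wild type. That sum leaned on bnb, the brightest of these genes, which was not called (limma adjusted p = 0.445). It averaged 11.31 log2 units in mutants and 11.62 in wild type, and the sum without bnb was not computed. The medians of the 15 genes were 5.888, 5.779 and 5.998 log2 units in mutant replicates 1 to 3, against 7.67, 9.01 and 9.19 in wild-type replicates 1 to 3. Among 15 neuronal genes 7 rose and none fell, among 12 muscle genes 3 and 0, among 15 ecdysone response genes 5 and 0, among 9 germline genes 0 and 0 (none at an unadjusted p under 0.05, and 1 called lower with the replicate block), and among 17 eggshell and yolk genes 2 and 1. With the replicate block 10 maternal genes were lower and 10 neuronal, 4 muscle and 6 ecdysone genes higher. Wild-type replicate 3 was the lowest wild-type array for 5 of 15 maternal, 4 of 9 germline, 3 of 17 eggshell, 9 of 15 neuronal, 10 of 12 muscle and 13 of 15 ecdysone genes. The muscle medians were 8.65, 8.67 and 8.60 log2 units in mutant replicates 1 to 3, against 8.81, 7.47 and 6.07 in wild-type replicates 1 to 3. The ecdysone medians were 8.52, 8.62 and 8.47 in the mutants, against 8.00, 7.98 and 7.18 in wild type. The ranges of summed signal were 4261 to 6768 in mutants against 1359 to 3220 in wild type for neurons, 10711 to 11332 against 2474 to 9334 for muscle, and 11702 to 14371 against 6627 to 13599 for ecdysone response. They were 10203 to 13562 against 9521 to 14067 for germline and 818 to 913 against 1529 to 1673 for eggshell and yolk. The muscle sum leaned on Act87E, the brightest muscle gene in mutants, which averaged 12.49 log2 units there and 10.57 in wild type. Without Act87E the muscle sum was not computed, so the gap between its ranges is not shown for the other muscle genes. The eggshell sum turned on clos, which averaged 5.25 log2 units in mutants and 9.82 in wild type. Without clos that sum was 784, 872 and 872 in mutant replicates 1 to 3, against 701, 690 and 753 in wild-type replicates 1 to 3, and the yolk protein gene Yp3 rose by 2.07 (limma adjusted p = 0.000623). No marker is at 0 on this scale, but 4 maternal, 5 neuronal, 1 muscle, 1 germline and 7 eggshell genes averaged below the array medians. The part of these markers in the heat shock results was not tested.

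Likeness to Hsp68 and to Hsp26 was measured over the 6 arrays as the root mean square difference of log2 values centred on each gene's mean. A similar difference between the groups makes this distance small, even where the arrays within a group are ordered otherwise. Nearest to Hsp68 among 11976 other genes were CG5973 (0.46), SNCF (0.51), clos (0.53), CG3502 and CG10591 (0.54 each). SNCF is on the list of the maternal and cellularising embryo and clos on that of the eggshell. In wild type SNCF was highest in replicate 3 (9.07, 9.01 and 9.24 log2 units in replicates 1 to 3), where Hsp68 was lowest. Closest to Hsp26 were CG13640, CG31809 and CG8562 (0.24 each), CG31098 (0.28) and CG5973 (0.31). Between the 2 genes themselves the distance was 0.66, and between Hsp26 and DnaJ-1 it was 0.52. Hsp27 and Hsf were the closest pair among the 6 genes, at 0.16, and both differed little between the groups (-0.47 and -0.22).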

How the data were processed

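The values deposited by the authors are log2 expression per probe set, from RMA run in Partek, as the submitters' processing notes and the design text state. RMA gives all arrays the same distribution, so a shift of most transcripts one way would be removed. Detection calls were not used. Precision is limited by the few arrays.

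Of 18952 probe sets 183 controls were left out of the tests. Of the rest 13647 have 1 gene symbol in the platform annotation, 402 have several and 4720 are unnamed here. Groups and replicate numbers came from the sample titles. No label names a batch of arrays, so none was fitted. The tests over all 18769 probe sets used limma 3.58.1 under R 4.3.3 (lmFit with eBayes, two-sided, Benjamini-Hochberg over all of them, threshold 0.05). SEs and intervals are limma's. For the lists, the brightest probe set by mean over all arrays stands for a gene. Only the main limma fit was tested on simulated data, with errors independent between arrays, unlike the shared deviations given below for arrays of the same number.

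Genes and lists were chosen with earlier results of these data known. All measured members are named, with every called gene of a chaperone list (at most 2 each way where over 4 were called, the smallest p where none was) and the 5 genes nearest to Hsp68 and to Hsp26. Genes named from other short counts were chosen after their values were seen. Arms and gene order come from RefSeq's gene table (assembly Release 6 plus ISO1 MT).

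Arrays with the same replicate number deviated together (r = 0.37, 0.57 and 0.39 across probe sets, -0.33 to -0.14 for other pairs). The labels do not state that the numbers pair the samples, so the main fit has no replicate term. Its SEs, intervals and p-values ignore any such pairing, and only the blocked fit takes it up. The blocked fit is given beside each gene or list whose calls it changes. Other alternatives were the prior, array weights, 3 scalings, a filter on the dimmest 40%, the submitters' 1.5-fold rule, the mean of a gene's probe sets, and each array left out.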

Additional observations from a re-analysis of the deposited data

How the results depend on the processing

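Hsp68, Hsp26 and DnaJ-1 kept their direction and their limma calls in all 13 alternative fits, with differences of -4.27 to -3.37, -2.85 to -2.19 and -1.75 to -1.16 and adjusted p-values up to 0.0205, 0.0230 and 0.0440. The count of lower genes was 3 in these fits, except 5 with array weights and 5 without wild-type replicate 3 (3 to 5 over the fits leaving out 1 array), where Hsp27 (-0.61 and -0.66) and stv (-1.47 and -1.72) passed. The Hsf difference turned to 0.16 with hybridization-control scaling. The mean control signals were 10.13 to 10.28 in mutants and 10.38 to 10.78 in wild type. No gene of the 6 was called higher in any fit. The replicate block gave 2745 calls over all probe sets (1689 higher, 1056 lower) against 1664 (1040 higher, 624 lower). Array weights gave 4371 and hybridization-control scaling 3202 (2917 higher, 285 lower). Leaving out 1 array gave 603 to 3674, namely 621, 603 and 607 without mutant replicates 1 to 3 and 3674, 891 and 1695 without wild-type replicates 1 to 3. Calls over the chaperone and stress lists were 18, against 41 with array weights, 33 with hybridization-control scaling and 4 to 43 with 1 array left out (6, 6 and 4 for mutant replicates 1 to 3, then 43 and 10 for wild-type replicates 1 and 2). The replicate block gave 27 there and changed no call among the 6 genes. The cause of these shifts was not tested.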

Other observations

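Of 12 measured genes on the oxidative stress list, 7 rose and 1 fell in the mutants, with a list median of 0.75 log2 units. With the replicate block 8 rose, the added gene being Trx2 at 0.82 (limma adjusted p = 0.0303). Cat, which encodes catalase, measured 10.63, 10.69 and 10.66 log2 units in the mutant arrays, against 9.41, 9.10 and 8.996 in the wild-type arrays, a rise of 1.49 (SE 0.12, limma adjusted p = 0.00148). GstD1, a glutathione transferase gene, rose by 1.58 (SE 0.22, limma adjusted p = 0.0100, up to 0.0550 with 1 array left out). Gclm, the modifier subunit of the enzyme that starts glutathione synthesis, fell by 0.71 (SE 0.12, limma adjusted p = 0.0213), which was 0.115 with hybridization-control scaling.

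In the endoplasmic reticulum, 2 of 15 folding and stress genes rose and 1 fell, with a list median of 0.40. With the replicate block 3 rose, the added gene being Der-1 at 0.88 (limma adjusted p = 0.0345). The ubiquitin ligase gene sip3 rose by 0.78 (SE 0.16, limma adjusted p = 0.0376) and prtp by 0.40 (SE 0.08, limma adjusted p = 0.0315). The gene crc, which encodes the fly ATF4 transcription factor of the unfolded protein response, fell by 0.43 (SE 0.07, limma adjusted p = 0.0205), against -0.05 (limma adjusted p = 0.745) with hybridization-control scaling. With 1 array left out their limma adjusted p-values reached 0.150, 0.135 and 0.106.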
